A study of Mus musculus with 14 samples.

Results

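*Nnmt*, which codes for nicotinamide N-methyltransferase, and 8 genes of one-carbon metabolism (*Mat2a*, *Ahcy*, *Shmt1*, *Mthfd1*, *Shmt2*, *Mthfd2*, *Tdh* and *Gldc*) were followed in 14 mouse embryonic stem (ES) cell lines. These 9 of the 23298 genes measured were picked by name, and *Nnmt* was picked because its RNA is among the autosomal RNAs most raised in XX lines. The difference of *Nnmt* between XX lines and the others is therefore described and not tested. The other 8 genes were taken for the reactions that their enzymes catalyse, and their differences were tested. All 9 were chosen with earlier results of these data known, so these tests are not independent of that choice.
The lines were hybrids of C57BL/6J and CAST/EiJ mice, with 3 BC XX, 3 BC XY and 2 BC XO lines from C57BL/6J mothers and 3 CB XX and 3 CB XY lines from CAST/EiJ mothers. Each line was derived from a single blastocyst and was grown in serum with LIF on mouse embryonic fibroblast feeders, which were depleted before total RNA was extracted and sequenced. A value is the read signal of a gene, which the authors had brought to a shared depth. Lines with the same label are separate lines of a group, so that the errors given here are the spread between lines.
In the methionine cycle, S-adenosylmethionine (SAM) is made from methionine, gives its methyl group to DNA, histones, nicotinamide or other acceptors, and becomes S-adenosylhomocysteine, which is split so that homocysteine can be turned back into methionine. The folate cycle carries the carbon units for that last step, for purines and for thymidylate, and takes them from serine and glycine. Mouse ES cells are known for their use of threonine as a source of glycine and carbon units. NNMT spends SAM on nicotinamide, a precursor of NAD, and the product, 1-methylnicotinamide, is not a methyl donor.
All 14 lines held RNA of the 10 pluripotent cell markers examined, with summed values between 114723 and 195789. The Y-linked gene *Uty* was at 2088, 1529 and 945 in BC XY lines and at 1149 in CB XY 1, but at only 19.6 and 45.4 in the XY-labelled lines CB XY 2 and 3, against 12.8 to 195 in the XX lines. The other 3 Y-linked genes of the list, *Ddx3y*, *Eif2s3y* and *Kdm5d*, were at 27.0, 2.46 and 4.91 in CB XY 2 and at 126, 32.5 and 22.1 in CB XY 3, within or below the range of the CB XX lines. BC XX lines held RNA of these genes too, with *Ddx3y* at 328 to 1024 (1115 to 2268 in BC XY lines), *Eif2s3y* at 102 to 317 (40.8 to 255) and *Kdm5d* at 36.9 to 123 (6.02 to 28.7). Results that rest on CB XY 2 and 3 are given with and without them. With the smallest step between values counted as 1 read, depth was lowest in CB XY 2 (11904414 reads) and highest in BC XX 2 (69646230), and a gene at or under 3 steps cannot be told from 0.

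*Nnmt* was higher in every XX line than in any XY or XO line, and 2.29% of 15311 genes were higher in all 6 XX than in all 6 XY lines. Its values were 182, 110 and 173 in BC XX lines and 48.3, 141 and 99.5 in CB XX lines. They were 9.99, 9.98 and 9.37 in BC XY lines, 9.57 and 16.4 in BC XO lines, and 12.1, 2.46 and 38.9 in CB lines labelled XY 1, 2 and 3. The lowest XX line (CB XX 1, 48.3) thus stood close above the highest of the others (the line labelled CB XY 3, 38.9), and the 2.46 of the line labelled CB XY 2 is a single step, under the 3 steps that can be told from 0.
Group means were 155 ± 39.3 (SD, n = 3) in BC XX, 96.4 ± 46.6 (n = 3) in CB XX, 17.8 ± 18.9 (n = 3) in CB XY, 13.0 ± 4.80 (n = 2) in BC XO and 9.78 ± 0.354 (n = 3) in BC XY lines. In this order, BC XX and CB XX lines overlapped, CB XX and CB XY lines did not, and CB XY, BC XO and BC XY lines overlapped. The BC XY values are only 8, 12 and 14 steps, so their small SD does not show how precisely that level is known. On the scale of log2(value + 5), used for all differences below, the XX lines were higher than the XY lines by 2.90 (SE 0.39), by 3.40 (SE 0.52) within the BC cross and by 2.39 (SE 0.52) within the CB cross. Against the XO lines the BC XX lines were higher by 3.15 (SE 0.58), while the XO and BC XY lines lay 0.26 apart (SE 0.58). The pseudocount of 5 makes these differences smaller than those of the values themselves, and with a pseudocount of 1 the difference between XX and XY lines was 3.34. Without the XY-labelled lines CB XY 2 and 3 it was 2.98.

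**Figure D1:**
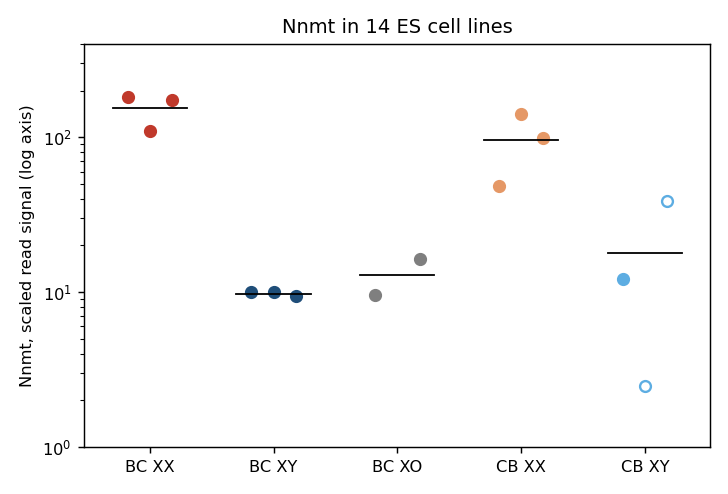
Scaled read signal of *Nnmt* (log axis) in each of 14 ES cell lines, by group. Points are lines, bars are group means, and open circles are the XY-labelled lines CB XY 2 and 3. The 6 XX lines, at 48.3 to 182, lie above the XY and XO lines, at 2.46 to 38.9.

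Per kilobase of exon, *Nnmt* was scarce. Its median value over 14 lines was 27.7, or 17.5 per kb, above 44.6% of the annotated genes on the same scale. The other 8 genes ranged from 1459 per kb (*Shmt1*) to 5958 per kb (*Ahcy*), above 94.4% to 98.9% of the annotated genes. *Nnmt* lies on the minus strand of chromosome 9 (chr9:48399982-48413258, mm9), a chromosome whose genes as a whole did not shift between lines (median deviation from -0.04 to 0.04 on the log2 scale).
The interaction of sex and cross, the CB difference less the BC difference, was -1.01 for *Nnmt* (95% interval -2.58 to 0.56, limma, adjusted p = 0.741). CB and BC lines of the same sex differed by -0.24 (CB minus BC, limma, adjusted p = 0.687). Both intervals are wide (-1.02 to 0.55 for the second), and neither sets the crosses apart or shows them alike.

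The level of *Nnmt* moved with RNA of fibroblasts. A list of 25 fibroblast genes, such as *Col1a1* and *Thy1*, was used to follow RNA left from the feeder cells. Its mean log2 level was 9.93, 10.7 and 11.1 in BC XX lines, 8.80, 8.03 and 7.50 in BC XY lines, and 8.66 and 8.76 in BC XO lines. Within the BC cross, every XX line was thus higher than every other line in both *Nnmt* and fibroblast RNA. The CB lines overlapped in fibroblast RNA, with 7.995, 9.50 and 9.24 in XX lines against 8.90, 7.64 and 9.19 in CB lines labelled XY 1, 2 and 3.
Over 14 lines the fibroblast level and *Nnmt* had a Pearson r of 0.805, and the r of *Nnmt* with each of the 25 genes was positive (median 0.727, and 0.604 after group means were removed). The 14 points share the group structure, so that this r is a description. Of 16261 genes, limma at an FDR of 0.05 called 4.46% higher in XX than in XY lines within the BC cross and 2.11% within the CB cross. Of the 25 fibroblast genes it called 16 higher in XX lines within the BC cross (median difference 2.29). Within the CB cross it called 0 of the 25, which is near the share over all genes (median 0.32, 0 at an unadjusted p under 0.05). None of these genes was at 0 in any line except for 1 gene in 1 CB XX line, and their summed value ranged from 60222 to 162131 in BC XX, 8349 to 21771 in BC XY, 19027 to 19376 in BC XO, 12407 to 35725 in CB XX and 8297 to 29467 in CB XY lines.
From the lowest to the highest fibroblast level, the CB lines had *Nnmt* at 2.46 (labelled XY 2, level 7.64), 48.3 (XX 1, 7.995), 12.1 (XY 1, 8.90), 38.9 (labelled XY 3, 9.19), 99.5 (XX 3, 9.24) and 141 (XX 2, 9.50). With the fibroblast level as a covariate, the difference of *Nnmt* between XX and XY lines was 2.08 in all, 1.61 within the BC cross and 2.15 within the CB cross. In RNA of a whole culture, more cells of a type and more RNA per cell cannot be told apart, and the part that feeder cells have in the level of *Nnmt* in BC XX lines cannot be told apart from the genotype.

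**Figure D2:**
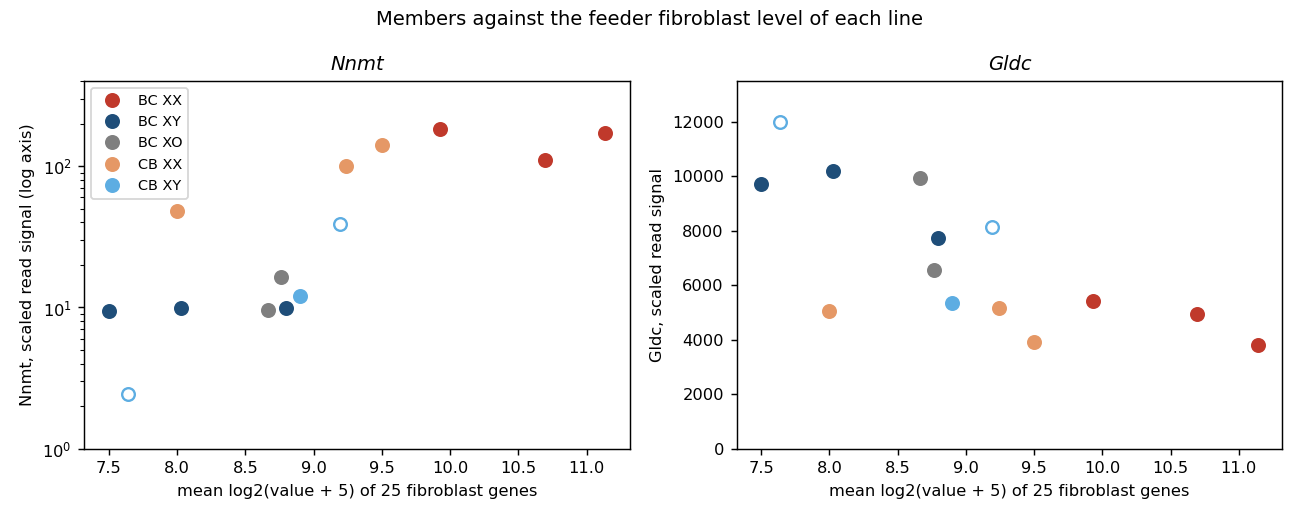
*Nnmt* (left, log axis) and *Gldc* (right, linear axis), as scaled read signal, against the mean log2(value + 5) of 25 fibroblast genes. Each point is 1 of 14 lines, coloured by group, and open circles are the XY-labelled lines CB XY 2 and 3. *Nnmt* rises and *Gldc* falls to the right (r = 0.805 and -0.737), and CB XX 1, at 7.995, lies above the lines near it for *Nnmt* and below them for *Gldc*.

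The genes with the pattern most like that of *Nnmt*, by Pearson r over 14 lines among 16260 others, were *Fam92a* (r = 0.960), *Cntln* (0.958), *Bmi1* (0.958), *Aga* (0.949), *Eda2r* (0.947), *Stox2* (0.943), *Rbm41* (0.942), *Pin4* (0.941), *Tmem173* (0.938) and *Atg4a* (0.936). *Bmi1* codes for a Polycomb protein and *Eda2r* for a receptor of the TNF receptor family. *Eda2r*, *Rbm41*, *Pin4* and *Atg4a* are on the X chromosome. Since *Nnmt* was picked for its rise in XX lines, a ranking over the same lines favours other genes that are higher in XX lines. The place of X-linked genes in it is therefore no separate result, and their share among all genes compared was not determined. The closest fibroblast gene, *Thy1*, came at rank 249 (r = 0.842). After group means were removed the 10 genes had an r between 0.667 and 0.870 with *Nnmt*.

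Of the 8 genes of the methionine, folate, glycine and threonine reactions, *Gldc* and *Mthfd1* were lower in XX than in XY lines and none was higher. Between 6 XX and 6 XY lines, 5.21% of 15311 genes passed an FDR of 0.05 in limma with Benjamini-Hochberg adjustment, and 1.99% did so with lower values in XX lines. The other 6 members differed by between -0.22 and -0.04 and did not pass. The median difference of the 8 was -0.19, against -0.03 over all genes tested.

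**Figure D3:**
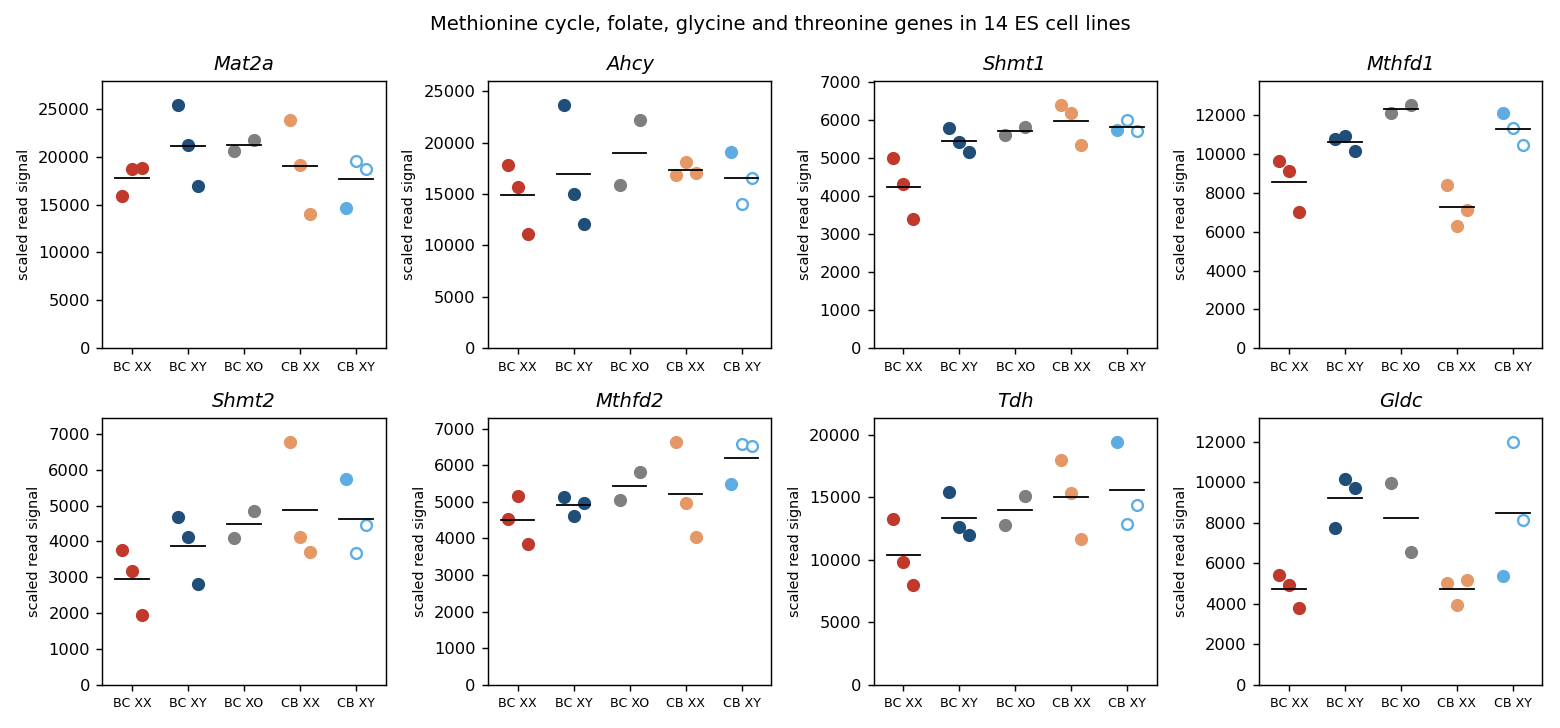
Scaled read signal of the 8 other members in each of 14 ES cell lines, by group, on linear axes that start at 0. Points are lines, bars are group means, and open circles are the XY-labelled lines CB XY 2 and 3. All 6 XX lines lie below all XY lines for *Mthfd1* (6281 to 9642 against 10138 to 12144), and 5 of 6 do so for *Gldc*.

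The promoters of *Gldc* and *Mthfd1*, the members that differed between XX and XY lines, are given from RefSeq, from 250 bases before to 50 bases after the annotated start, with capitals for CCAAT or its reverse complement ATTGG, a box found in many promoters. The *Gldc* window is chr19:30249882-30250181 and the *Mthfd1* window chr12:77355969-77356268 of mm9, where each GRCm38.p6 sequence matched exactly and at 1 place. *Gldc* is on the minus strand and *Mthfd1* on the plus strand.
Gldc: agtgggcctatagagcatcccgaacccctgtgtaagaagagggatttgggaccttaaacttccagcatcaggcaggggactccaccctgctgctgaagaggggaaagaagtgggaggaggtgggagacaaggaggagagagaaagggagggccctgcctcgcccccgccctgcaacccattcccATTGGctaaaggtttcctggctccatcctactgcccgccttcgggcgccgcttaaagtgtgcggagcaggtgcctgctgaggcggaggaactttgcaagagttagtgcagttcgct
Mthfd1: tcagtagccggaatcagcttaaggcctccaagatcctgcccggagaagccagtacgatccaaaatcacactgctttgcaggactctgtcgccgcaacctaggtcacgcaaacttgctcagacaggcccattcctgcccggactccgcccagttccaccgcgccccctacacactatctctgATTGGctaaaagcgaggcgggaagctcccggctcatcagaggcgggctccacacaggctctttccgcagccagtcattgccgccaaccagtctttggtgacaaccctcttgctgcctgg
Both windows hold a single box, ATTGG, whose first base lies 66 bases (*Gldc*) and 69 bases (*Mthfd1*) before the start. A box on either strand is in 6 of the 7 members in the RefSeq table, all but *Shmt2*, and in 37.4% of 32851 promoters of that length. *Mthfd2* holds 3 boxes, and at least 2 are in 11.7% of all promoters. *Nnmt* and *Tdh* were not in the table. The box is present in members that differed and in members that did not, and a match of letters is a description only.

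*Gldc* codes for glycine decarboxylase, the subunit of the mitochondrial glycine cleavage system that releases CO2 from glycine. Its values were 5412, 4955 and 3810 in BC XX lines and 5056, 3924 and 5182 in CB XX lines. They were 7747, 10195 and 9725 in BC XY lines, 9951 and 6548 in BC XO lines, and 5362, 12000 and 8147 in CB lines labelled XY 1, 2 and 3. The XX lines were low and close together (4723 ± 681, SD, n = 6), the XY lines were high and spread (8863 ± 2297, n = 6), and only BC XX 1, at 5412, was above the lowest XY line, CB XY 1, at 5362.
*Gldc* was 1.84-fold higher in XY than in XX lines (difference -0.88, 95% interval -1.25 to -0.50, limma, adjusted p = 0.0123). It stayed past the threshold when any single line was left out (adjusted p 0.00344 to 0.0329, limma). The call was lost without the XY-labelled lines CB XY 2 and 3 (-0.77, adjusted p = 0.0576 in limma) and with the fibroblast level as a covariate (-0.62, adjusted p = 0.133). Over 14 lines the r of *Gldc* with the fibroblast level was -0.737 and with *Nnmt* -0.850, and with *Nnmt* it was -0.463 after group means were removed.
Within the BC cross the XX lines were lower by a difference of -0.97 (limma, adjusted p = 0.0408, where 5.70% of 16261 genes were called), and 3 of 3 XX lines lay below all XY lines, as they did for 12.5% of genes. With the fibroblast level as a covariate that difference was -0.11 (limma, adjusted p = 0.963), and 8 of 16261 genes were called at all. It also lost the call without BC XX 2, BC XX 3, BC XY 2, BC XY 3 or the line labelled CB XY 3 (limma, adjusted p 0.0551 to 0.174). Within the CB cross it was -0.78 (limma, adjusted p = 0.114), again with 3 of 3 XX lines below all XY lines (11.5% of genes), and -0.19 against CB XY 1 alone. In CB XX 2, the lowest CB XX line for *Gldc*, the genes of chromosome 19, where *Gldc* lies, had a median log2 deviation of -0.21. In the other lines it was -0.13 to 0.09. With the chromosome median of each line subtracted the CB difference was -0.68, and the part of this shift was not tested. For *Gldc*, BC XX lines lay below both XO lines, as for 23.5% of genes, by -0.79 (limma, adjusted p = 0.115), and XO lines differed from BC XY lines by -0.18, with an interval from -0.79 to 0.43.

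*Mthfd1* codes for the cytosolic enzyme with 3 activities that interconverts folates carrying carbon units at different oxidation states, on the way to purines and thymidylate. Its values were 9642, 9117 and 7011 in BC XX lines and 8392, 6281 and 7137 in CB XX lines. They were 10801, 10932 and 10138 in BC XY lines, 12110 and 12519 in BC XO lines, and 12144, 11330 and 10486 in CB lines labelled XY 1, 2 and 3. All 6 XX lines were lower than all 8 other lines, a separation of XX below XY lines that 1.23% of the 15311 genes showed.
The difference between XX and XY lines was -0.48 (95% interval -0.73 to -0.24, limma, adjusted p = 0.0273), or 1.40-fold higher in XY lines. In 7 of 12 fits with a line left out it passed. It did not without BC XY 2, CB XX 2, CB XX 3, CB XY 1 or the line labelled CB XY 2 (limma, adjusted p 0.0571 to 0.0657), nor without both lines labelled CB XY 2 and CB XY 3 (-0.49, adjusted p = 0.0990) or with the fibroblast level as a covariate (-0.50, adjusted p = 0.112). The size of the difference thus stayed between -0.54 and -0.42 in all these fits while the p crossed the threshold.
Within the CB cross the difference was -0.65 (limma, adjusted p = 0.0265, where 3.57% of 16261 genes were called), against -0.32 in the BC cross (limma, adjusted p = 0.206). The difference between the crosses was not significant (interaction -0.33, 95% interval -0.77 to 0.11, limma, adjusted p = 0.685). The CB call was lost without CB XX 2, CB XX 3, CB XY 1 or the line labelled CB XY 2 (limma, adjusted p 0.0508 to 0.133). Against CB XY 1 alone, without the lines labelled CB XY 2 and 3, the CB difference was -0.75. CB XX 2 is the lowest line for *Mthfd1*, and in that line the genes of chromosome 12, where *Mthfd1* lies, had a median log2 deviation of -0.28, against -0.06 to 0.11 in the other 13 lines. The part of this shift in the *Mthfd1* value was not tested, and without CB XX 2 the CB difference was -0.55. Against XO lines the BC XX lines were lower by -0.53 (limma, adjusted p = 0.0713, with 4.66% of genes called in that comparison), and both XO lines had more *Mthfd1* than any BC XY line (9.01% of genes), with a difference of 0.21 (95% interval -0.13 to 0.56).

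*Shmt1* and *Shmt2* code for the cytosolic and mitochondrial serine hydroxymethyltransferases, which pass a carbon unit from serine to folate and leave glycine. *Shmt1* values were 4993, 4307 and 3407 in BC XX lines, 5788, 5424 and 5157 in BC XY lines, and 5615 and 5818 in BC XO lines. In CB lines they were 6386, 6175 and 5342 (XX) and 5725, 6010 and 5717 (labelled XY). Every BC XX line was below every other line, whereas the CB groups overlapped. Of all genes, 12.5% had all BC XX lines below all BC XY lines, and 23.5% had them below both XO lines.
The difference of *Shmt1* between XX and XY lines was -0.38 in the BC cross (limma, adjusted p = 0.130) and 0.03 in the CB cross (limma, adjusted p = 0.932). The interaction was 0.41, with an interval from -0.02 to 0.84 (limma, adjusted p = 0.572). CB lines were higher than BC lines by 0.30 (limma, adjusted p = 0.0558), in a comparison in which 16.0% of genes were called. Among the 9 members *Shmt1* and *Gldc* had the most negative r with the fibroblast level (-0.732 and -0.737).
*Shmt2* spread widely within groups, from 1943 to 3759 in BC XX, 2799 to 4687 in BC XY, 3700 to 6771 in CB XX and 3667 to 5734 in CB XY lines, and was 4108 and 4856 in XO lines. XX and XY lines differed by -0.18 (95% interval -0.71 to 0.34, limma, adjusted p = 0.687). BC XX lines lay below both XO lines, as for 23.5% of genes (-0.65, limma, adjusted p = 0.227). Over 14 lines *Shmt2* and *Tdh* had an r of 0.929, the highest between any 2 members, and 0.894 after group means were removed.

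*Mthfd2*, the mitochondrial partner of *Mthfd1* and an enzyme of proliferating and embryonic cells, did not separate XX from XY lines (-0.20, 95% interval -0.51 to 0.10, limma, adjusted p = 0.417). Its values were 4525, 5164 and 3850 in BC XX lines, 5134, 4624 and 4972 in BC XY lines, and 5044 and 5823 in XO lines. In CB lines they were 6636, 4982 and 4031 (XX) and 5479, 6585 and 6524 (labelled XY). The highest 3 of 14 values were those of CB XX 1 and of the XY-labelled lines CB XY 2 and 3.
The same 3 lines had the highest RNA level of chromosome 6, on which *Mthfd2* (chr6:83255685-83267600) and *Mat2a* (chr6:72382793-72389552) lie. The median log2 deviation of chromosome 6 genes was 0.27, 0.35 and 0.27 in CB XX 1, CB XY 2 and CB XY 3, and -0.13 to 0.09 in the other 11 lines. The CB lines high in *Mthfd2* were thus the lines high in chromosome 6 RNA, and they carried both labels, XX and XY. The part of the chromosome in the level of *Mthfd2* was not tested.

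**Figure D4:**
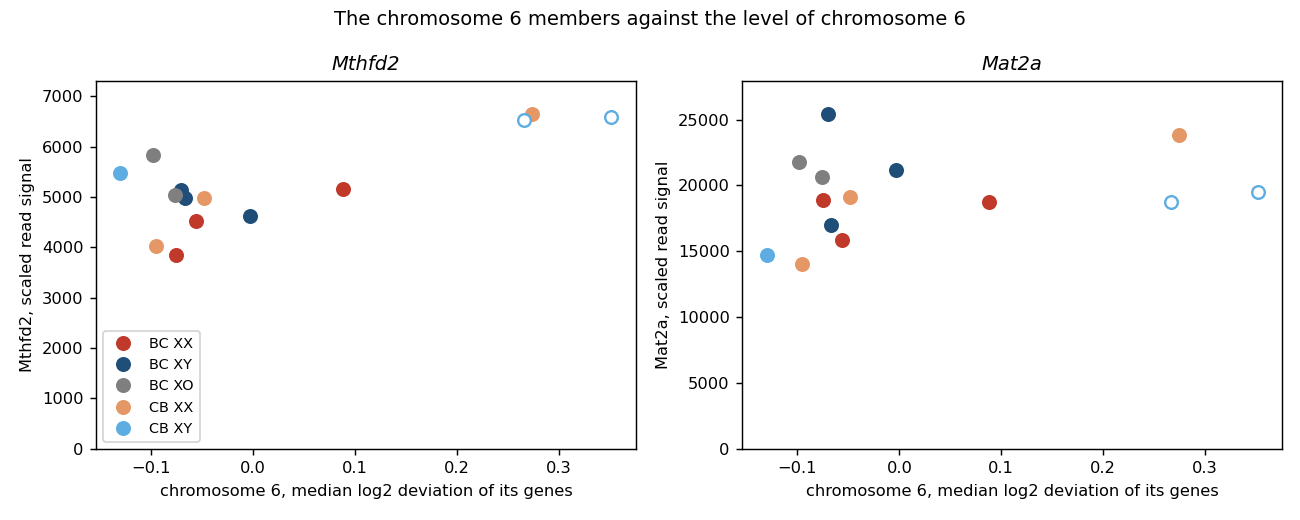
*Mthfd2* (left) and *Mat2a* (right), as scaled read signal on linear axes from 0, against the median log2 deviation of chromosome 6 genes in each line. Points are 14 lines, coloured by group, and open circles are the XY-labelled lines CB XY 2 and 3. The 3 lines at 0.27 to 0.35 hold the 3 highest values of *Mthfd2*, but not of *Mat2a*.

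*Mat2a* codes for the catalytic subunit of the methionine adenosyltransferase that makes SAM outside the liver. Its values were 15881, 18773 and 18864 in BC XX lines, 25394, 21192 and 16963 in BC XY lines, and 20668 and 21800 in XO lines. In CB lines they were 23807, 19124 and 14064 (XX) and 14696, 19525 and 18773 (labelled XY). XX and XY lines overlapped and differed by -0.07, with an interval from -0.39 to 0.24 (limma, adjusted p = 0.795). Both XO lines were above all 3 BC XX lines, as for 23.5% of genes, by a difference that did not pass (limma, adjusted p = 0.513).
*Ahcy* codes for the hydrolase that splits S-adenosylhomocysteine, an inhibitor of many methyltransferases. Its values ran from 11121 to 17856 in BC XX, 12122 to 23649 in BC XY, 16889 to 18126 in CB XX and 14022 to 19069 in CB XY lines, and were 15853 and 22240 in XO lines. The difference between XX and XY lines was -0.04, with an interval from -0.39 to 0.32 (limma, adjusted p = 0.913). A stretch of 2086 of the 2543 bases of its transcript (82.0%) matches another place in mm9 at 98% identity or more, so that its reads may have been divided between copies and its level is uncertain. For *Shmt1* such matches cover 54 bases, and for the other 7 members none was found.
*Tdh* codes for threonine dehydrogenase, which starts the breakdown of threonine to glycine and acetyl-CoA in mouse ES cells. Its values were 13278, 9805 and 7960 in BC XX lines, 15418, 12650 and 11980 in BC XY lines, and 12771 and 15111 in XO lines. In CB lines they were 17949, 15359 and 11694 (XX) and 19412, 12892 and 14377 (labelled XY). *Tdh* was among the most abundant of the 9 per kilobase (5004 per kb), and its XX and XY lines overlapped (difference -0.22, 95% interval -0.62 to 0.18, limma, adjusted p = 0.501). CB lines were higher than BC lines by 0.38 (limma, adjusted p = 0.0989).

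Set side by side by cross, the 8 genes leaned the same way in BC lines and not in CB lines. All 8 were lower in BC XX than in BC XY lines, as were 8770 of 16261 genes, with a median of -0.35, whereas 4 were lower and 4 higher in CB XX lines (median -0.01). For all 16261 genes the medians were -0.04 and -0.02, and 8521 were lower in CB XX than in CB XY lines. The fibroblast list moved with this split, with a median difference of 2.29 in BC lines and 0.32 in CB lines, and all 8 genes had a negative r with its level over 14 lines (-0.737 to -0.0666). With that level as a covariate, 6 of the 8 were lower in BC XX lines and *Mthfd1* and *Mthfd2* were not (0.0091 and 0.24). The interaction passed for none of the 9 in limma, none reached an unadjusted p under 0.05, and 0.0738% of all genes passed. Against XO lines the same 8 were lower in BC XX lines (median -0.45), as were 8361 of 16261 genes (median -0.02). This comparison shares its BC XX lines with the one against XY. No member passed between XO and BC XY lines in limma (adjusted p = 0.999 for each of the 8, none at an unadjusted p under 0.05), in a comparison in which 0.00615% of genes passed and 242 of 16261 had an unadjusted p under 0.05.

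**Figure D5:**
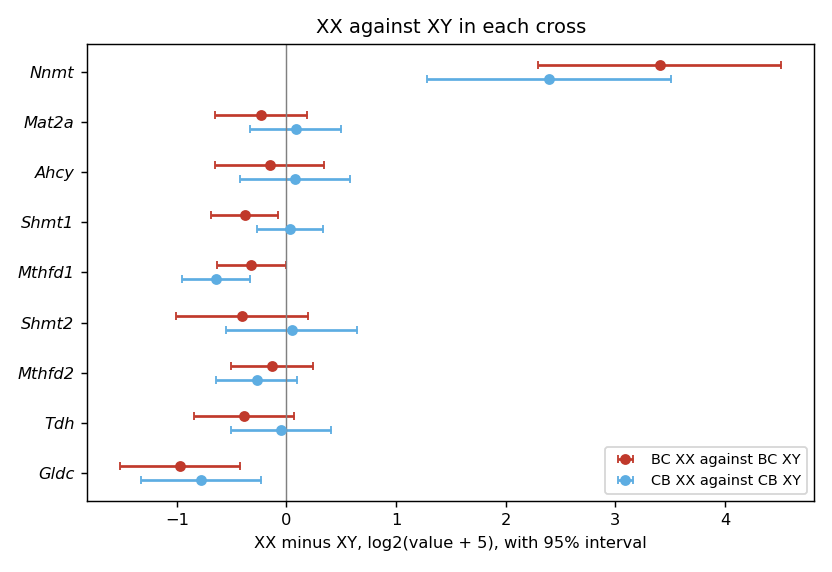
Difference between XX and XY lines, XX minus XY on the scale of log2(value + 5), for the 9 members in the BC cross (red) and the CB cross (blue). Points are estimates from a limma model of 5 groups and 14 lines, and bars are 95% intervals without adjustment for the number of genes. *Nnmt* was picked for its rise in XX lines, so its points and bars describe that rise and do not test it. *Gldc* and *Mthfd1* have estimates to the left of 0 in both crosses. At an FDR of 0.05, *Gldc* passed only in the BC cross and *Mthfd1* only in the CB cross. The intervals of the other 6 span 0 in at least 1 cross.

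Of 48 genes in lists of the methionine cycle, cytosolic and mitochondrial folate enzymes, glycine and threonine breakdown, and serine synthesis (without *Nnmt*), 44 were tested in XX against XY lines. In limma 3 were lower in XX lines (*Gldc*, *Mthfd1* and *Cbs*) and 0 were higher. Counted in either direction this share is close to the 5.21% called over all genes, of which 1.99% were called lower. The median difference was -0.17, against -0.03 over all genes. By list, the medians were -0.06 for the methionine cycle (14 tested, 1 called), -0.25 for cytosolic folate enzymes (12 tested, 1 called), -0.01 for mitochondrial folate enzymes (7 tested, 0 called), -0.22 for glycine and threonine breakdown (8 tested, 1 called) and -0.17 for serine synthesis (3 tested, 0 called). Within crosses the medians were -0.25 in BC lines (34 of 45 genes lower in XX) and 0.02 in CB lines (21 of 45 lower). Of all 16261 genes, 8770 were lower in XX in BC lines and 8521 in CB lines.
*Cbs*, which codes for cystathionine beta-synthase, the enzyme that draws homocysteine out of the methionine cycle toward cysteine, had values of 463, 540 and 306 in BC XX, 652, 929 and 1235 in BC XY, 1161 and 684 in XO, 705, 500 and 572 in CB XX, and 660, 1363 and 905 in the CB lines labelled XY. It was 1.84-fold higher in XY than in XX lines (difference -0.88, limma, adjusted p = 0.0376), and CB XX 1 lay above 2 of the 6 XY lines. The call was lost without CB XY 2 and CB XY 3 (limma, adjusted p = 0.154), with the fibroblast level as a covariate (0.448) and in 9 of 12 fits with a line left out.
*Aldh1l2*, the mitochondrial enzyme that oxidizes formyl-folate, was the single gene of these lists higher in XX lines in a cross. Its values were 318, 245 and 315 in CB XX lines against 143, 90.9 and 164 in CB lines labelled XY (difference 1.14, limma, adjusted p = 0.0383). Without the XY-labelled lines CB XY 2 and 3 the call was lost (limma, adjusted p = 0.296), and it passed in 5 of 14 fits with a line left out (limma, adjusted p up to 0.156). In the BC cross the values were 357, 417 and 720 in XX and 260, 298 and 221 in XY lines (0.87, unadjusted p = 0.00773 in limma), and the groups did not overlap in either cross, with XX above XY as in 14.6% (BC) and 11.7% (CB) of genes. Between all XX and XY lines *Aldh1l2* was called only in some fits. It passed with the cross as a covariate (1.01, limma, adjusted p = 0.00937) and without CB XX 1 (1.05, limma, adjusted p = 0.0492).
Of 15 genes that make, use or break down nicotinamide and NAD, 1 differed between XX and XY lines, where 5.21% of all genes were called. *Naprt1*, the nicotinate phosphoribosyltransferase that starts the synthesis of NAD from nicotinic acid, was 2.30-fold higher in XY lines (difference -1.20, limma, adjusted p = 0.0272). Its values were 143, 144 and 73.7 in BC XX, 316, 230 and 125 in BC XY, and 202 and 277 in XO lines. In CB lines they were 166, 104 and 112 (XX) and 414, 391 and 334 (labelled XY), a difference of -1.56 (limma, adjusted p = 0.0224). Both calls were lost without the XY-labelled lines CB XY 2 and 3 (limma, adjusted p = 0.137 and 0.176). The first was also lost with the fibroblast level as a covariate (limma, adjusted p = 0.114) and in 6 of 12 fits with a line left out, and the second in 3 of 14. *Nampt*, which makes NAD from nicotinamide, the substrate of NNMT, differed by -0.14 between XX and XY lines, with an interval from -0.46 to 0.18.
Between the crosses, CB against BC lines, 5 of 45 one-carbon genes passed in limma, a lower share than the 16.0% of all genes, and none was a member. *Fpgs* (0.74), *Slc19a1* (0.76) and *Gcat* (0.74) were higher in CB lines, and *Aldh1l2* (-0.84) and *Cth* (-0.47) were lower, with adjusted p from 0.0151 to 0.0429 in limma, and without the XY-labelled lines CB XY 2 and 3 none of the 45 passed. *Slc19a1* codes for the reduced folate carrier, *Fpgs* for the enzyme that retains folates in cells, and *Gcat* for the enzyme after *Tdh* in threonine breakdown. *Aox3*, an aldehyde oxidase of the nicotinamide list, was lower by -0.72 (limma, adjusted p = 0.0487), a call lost without the XY-labelled lines CB XY 2 and 3 (limma, adjusted p = 0.350), with the fibroblast level as a covariate (0.184) and in all but 2 of 14 fits with a line left out.
Among the members themselves, *Nnmt* ran against *Gldc* and *Mthfd1* (r = -0.850 and -0.794 over 14 lines) and less against the others (r = -0.493 to -0.101). After group means were removed, the r with *Gldc* and *Mthfd1* was -0.463 and -0.458. *Nnmt* was picked for its rise in XX lines and these 2 genes were lower there, so their r over 14 lines in part restates that contrast. *Tdh*, *Shmt1* and *Shmt2* ran together (r = 0.842 to 0.929 in each pair). *Mat2a* and *Mthfd2*, both on chromosome 6, had an r of 0.401, and of 0.690 after group means were removed. The genes most like *Shmt2* were *U2af2* (0.977), *Med27* (0.966) and *Tmem39b* (0.957). For *Tdh* they were *Ndufa2* (0.967), *Snhg8* (0.957) and *Snrpb* (0.957), and for *Shmt1* *Srrd* (0.966), *Pold2* (0.963) and *Cox10* (0.963). *Ahcy* was most like *Dcps* (0.936), *Bub3* (0.924) and *Lamtor4* (0.924), *Mthfd2* most like *Ccdc151* (0.918), *Aldh4a1* (0.913) and *Necap2* (0.907), and *Mat2a* most like *Hsph1* (0.891), *Trim6* (0.825) and *Glul* (0.811). The lines share their cross, sex and feeder RNA, so these r values describe these lines only.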

How the data were processed

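RNA of 14 ES cell lines was analysed from 1 table of 23298 genes. According to the methods, libraries that keep the strand were made from RNA freed of ribosomal RNA, sequenced as single-end reads of 50 bases and mapped with TopHat2 (mm9), and expression was compared with Cuffdiff. The authors deposited a read signal for each gene, already brought to a shared depth (28150900 to 30657800 per line). In each line 98.5% to 98.9% of values are whole multiples of a step (tolerance 0.1 of a step), but the remainder are not, so count tests were not used. The columns of CB XX lines carry other numbers than the labels, and these lines are numbered by column.

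Values were tested as log2(value + 5) with limma 3.58.1 in R 4.3.3 (trended variance, Benjamini-Hochberg adjustment over all genes tested, FDR 0.05, two-sided), for genes at 10 or more in at least 6 lines (XX against XY, 12 lines) or 2 lines (a model of 5 groups on 14 lines). Intervals cover 95%. Left out were 15 genes listed at 0 in all lines of a group and at 100 or more elsewhere. Tables were read with Python 3.11.15 and pandas 2.3.3. Gene positions and exon lengths are from GENCODE (NCBIM37), promoters from RefSeq (GRCm38.p6, placed by exact match), and copies were sought with blastn 2.17.0 (50 bases or more, 98% identity). Chromosome levels are medians, per line, of log2(value + 5) less each gene's median. The steps were tested on simulated data.

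The 9 members, the gene lists and the marker lists were chosen with earlier results of these data known. Named are the 9 members, other genes of the pathway lists past the FDR, the 10 genes most like *Nnmt* and the 3 most like each other member (not reported here for *Gldc* and *Mthfd1*), and marker genes. *Nampt*, *Col1a1* and *Thy1* are named as examples. Alternatives changed the scaling (TMM factors), the filter, the pseudocount (1 or 20), the covariates (cross, replicate number, fibroblast level) and the lines.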

Additional observations from a re-analysis of the deposited data

Results flagged for a closer look

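The *Ahcy* value of BC XX 3 stood apart from those of the other XX lines. The gap to the next lowest of the 6 XX lines took up 0.710 of their whole range on the log2(value + 5) scale, above the critical value of 0.625 for 6 samples in Dixon's test. *Ahcy* was at 11121 in BC XX 3 and at 15733 to 18126 in the other XX lines. BC XX 3 was also the lowest XX line for *Shmt1*, *Shmt2*, *Tdh*, *Gldc* and *Mthfd2*, and had the highest fibroblast level of all lines (11.1). Such a test picks out about 1 in 20 groups by chance, and the part of fibroblast RNA in this value was not tested.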

How the results depend on the processing

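Of the one-carbon genes other than *Nnmt*, 3 passed in XX against XY lines, but 2 without a filter, 6 with the cross as a covariate, 0 with the fibroblast level as a covariate, 0 without the XY-labelled lines CB XY 2 and 3, and 1 to 7 with a line left out (1 without BC XY 2, CB XX 2, CB XX 3 or the line labelled CB XY 2, and 7 without CB XX 1). Among these calls only *Aldh1l2* was higher in XX lines, with the cross as a covariate and without CB XX 1. The number called over all genes moved too, from 797 to 694, 1697, 388 and 313 in these settings and to 1746 without CB XX 1. In the BC cross 1 passed, but 0 without a filter, 0 with the fibroblast covariate and 0 to 4 with a line left out. Over all genes the counts in that cross were 927, then 715, 8 and 229 to 1144. In the CB cross 2 passed, but 1 without a filter, 0 without both lines labelled CB XY 2 and CB XY 3, and 0 to 2 with a line left out. In CB against BC lines 5 passed, but 2 without a filter, 0 with the fibroblast covariate and 1 to 9 with a line left out. Counts over all genes were 2605, then 2167, 957 and 1217 to 3656. Without both lines labelled CB XY 2 and CB XY 3, CB XY 1 stands alone in its group. No count is therefore given here for that setting within the CB cross or for CB against BC lines. In BC XX against XO lines 0 passed, and 0 to 4 with an XX or XY line left out. Over all genes 758 passed, and 70 to 1093 with such a line left out. Apart from the covariates and the lines, the cause was not tested.

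*Nnmt* kept its direction in XX against XY lines, in each cross and against XO lines in all settings. It was picked for its rise in XX lines, and each XX line was above each XY and XO line. Leaving out lines or changing the filter or the pseudocount could therefore not turn the sign, and this is no support for the difference. With the fibroblast covariate these differences changed sign: XX against XY for *Tdh* (0.015), *Shmt1* (0.083) and *Shmt2* (0.14), BC for *Mthfd1* (0.0091) and *Mthfd2* (0.24), XX against XO for *Mthfd2* (0.0030), XO against XY for *Nnmt* (-0.18) and *Gldc* (0.028), the interaction for *Nnmt* (0.54) and *Gldc* (-0.56), and CB against BC for *Nnmt* (0.20). Without the XY-labelled lines CB XY 2 and 3 so did CB for *Ahcy* (-0.14) and *Shmt2* (-0.29) and the interaction for *Tdh* (-0.0031) and *Mthfd2* (0.029). With a line left out the sign changed, over the ranges given, in XX against XY for *Mat2a* (-0.15 to 0.0067), *Ahcy* (-0.12 to 0.069) and *Shmt2* (-0.36 to 0.0014), in BC for *Ahcy* (-0.37 to 0.11), in CB for *Mat2a* (-0.10 to 0.28), *Ahcy* (-0.034 to 0.19), *Tdh* (-0.19 to 0.12), *Shmt1* (-0.018 to 0.11) and *Shmt2* (-0.22 to 0.22), in the interaction for *Ahcy* (-0.036 to 0.45), *Gldc* (-0.11 to 0.47) and *Mthfd2* (-0.33 to 0.028), in XO against XY for *Nnmt* (-0.020 to 0.53), *Mat2a* (-0.13 to 0.16), *Ahcy* (-0.038 to 0.48), *Tdh* (-0.055 to 0.19) and *Gldc* (-0.48 to 0.12), and in CB against BC for *Nnmt* (-0.57 to 0.075), *Mat2a* (-0.19 to 0.0046) and *Gldc* (-0.23 to 0.057). None of these differences had passed the threshold.

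Replicate numbers did not pair the lines (r of the deviations of same-numbered BC XX and BC XY lines -0.17, 0.25 and -0.05). With the replicate number as a block, *Gldc* in the BC cross had an adjusted p of 0.0678 in limma, and without a filter 0.0675. The block turned *Tdh* in XO against XY lines to -0.032 and in the BC cross 1 one-carbon gene passed with it, *Gcat* in place of *Gldc*. For comparisons with CB XX lines, no paired analysis was possible because their columns carry no label numbers. A planned count test was not run, since the values are scaled. Depth limits *Nnmt* most in CB XY 1 and the XY-labelled line CB XY 2, where its values are 6 steps and 1 step. It also limits *Nnmt* in BC XY lines, at 8, 12 and 14 steps, and in BC XO 1, at 12 steps.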
